A study of Mus musculus with 9 samples.

Results

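Mage, Xlr, Prame and Ssx genes form 4 families, known mainly from germ cells and tumours, whose members in this table lie mostly on the X chromosome. Their members were taken here as every gene of the deposited table whose symbol begins, in this spelling, with Mage, Xlr, Pram or Ssx, leaving out Magel2. The rule found 40 of 27207 genes, of which 34 were X-linked and 8 were annotated as pseudogenes. It gave 14 type I Mage genes (Magea and Mageb), 5 type II Mage genes (Maged1, Maged2, Magee1, Magee2 and Mageh1), 14 Xlr genes, 4 Prame genes (Pramef8, Pramef12, Pramel1 and Pramel3) and 1 Ssx gene (Ssxb5). It also took in 2 genes of other proteins with similar symbols, Pram1, an adaptor of myeloid cells, and Ssx2ip, a centrosome and cell junction protein named for binding SSX2. These 2 stay in the counts and are named apart.

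RNA was measured in whole mouse lungs at E18.5, late in gestation. Strong CKO lungs (3 libraries) and weak CKO lungs (3 libraries) both carried Tbx4-rtTA and Tet-O-Cre and were Dnmt1-D/D, a conditional knockout (CKO), and the third group was wild type (WT, 3 libraries), without a further strain or transgene in its label. Weak CKO lungs were small, and strong CKO lungs were small and also bled into the tissue. In the CKO genotype Cre depends on rtTA, which is made where the Tbx4 driver acts. A Tbx4 lung enhancer is known to act in lung mesenchyme, so the RNA also came from lung cells outside the driver. Libraries are named MUT_S for strong CKO, MUT_W for weak CKO and WT, with the number of the title.

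DNMT1 is the enzyme that copies DNA methylation to the new strand when a cell divides, and many germline genes are kept silent in body tissues by promoter methylation. MAGE proteins share a domain that binds RING-type ubiquitin ligases. Type I genes are known as cancer-testis genes, silent in most adult tissues outside the testis, while type II genes are used in many tissues. Xlr genes (X-linked, lymphocyte regulated) are relatives of the meiotic gene Sycp3, PRAME proteins are leucine-rich repeat proteins of which human PRAME recruits targets to a cullin 2 ubiquitin ligase, and human SSX genes were found at the breakpoints of synovial sarcoma.

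Column totals ran from 25607595 to 33156732 counts per library. Values are CPM (a count relative to the depth of its library, after TMM scaling). A member is called silent in WT where all 3 WT libraries had 0 counts, which allows up to 3 counts over the 3 libraries, or 0.0327 CPM. This floor covers counting error only. Dnmt1 itself had 61.9, 78.7 and 65.1 CPM in strong CKO, 59.0, 69.1 and 80.6 CPM in weak CKO, and 79.0, 121 and 97.1 CPM in WT lungs. It was lower in strong CKO (log2 change −0.53 ± 0.17 (SE), edgeR adjusted p = 0.0433) and missed the threshold in weak CKO (−0.51 ± 0.17, adjusted p = 0.0727). The gene-level count does not tell a deleted allele's transcript from an intact one. Y-linked genes were expressed in MUT_W_268_3, WT_265_1 and WT_549_2 and near 0 in the other 6 libraries, so all strong CKO lungs lacked them, against 2 of 3 weak CKO lungs and 1 of 3 WT lungs. MUT_W_268_3 held Y-linked Ddx3y at 165 CPM together with Xist at 955 CPM. Epithelial, endothelial and mesenchymal lung markers were present in every library, and in strong CKO 2 of 4 epithelial, 3 of 3 endothelial and 3 of 4 mesenchymal markers were lower, against 1 of 4, 1 of 3 and 3 of 4 in weak CKO.

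The promoters of 5 members are shown: a near-identical pair that differed in WT lungs, silent members with many and with no CpG sites, and the member with the highest WT level. They come from RefSeq on GRCm38.p6, 250 bases before the start to 50 bases after it, read 5′ to 3′ on the gene's strand, with CpG sites in capitals. Xlr3c (chrX:73265341-73265640, minus strand, 7 CpG sites) was silent in WT, and Xlr3b (chrX:73191929-73192228, plus strand, 7 CpG sites) was expressed there. Pramel1 (chr4:143394191-143394490, plus strand, 20 CpG sites) and Magea5 (chrX:155061504-155061803, minus strand, 0 CpG sites) were both silent in WT. The Magea5 window lies inside the GENCODE span of the gene (chrX:155053061-155063145), which begins further upstream. The same holds for some members not shown, Xlr5c among them. Maged1 (chrX:94541976-94542275, minus strand, 20 CpG sites) had the highest level of all members in WT.
Xlr3c: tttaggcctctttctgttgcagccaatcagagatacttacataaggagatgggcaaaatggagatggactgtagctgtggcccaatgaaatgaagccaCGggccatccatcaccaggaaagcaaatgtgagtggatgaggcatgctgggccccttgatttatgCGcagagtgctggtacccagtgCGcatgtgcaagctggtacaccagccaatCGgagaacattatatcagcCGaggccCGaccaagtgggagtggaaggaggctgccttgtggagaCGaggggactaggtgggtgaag
Xlr3b: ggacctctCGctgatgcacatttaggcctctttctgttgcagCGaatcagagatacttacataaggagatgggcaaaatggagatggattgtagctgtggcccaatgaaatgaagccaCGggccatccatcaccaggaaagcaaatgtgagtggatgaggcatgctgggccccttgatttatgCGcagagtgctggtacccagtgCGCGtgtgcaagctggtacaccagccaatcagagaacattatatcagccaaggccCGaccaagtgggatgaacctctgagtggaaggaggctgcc
Pramel1: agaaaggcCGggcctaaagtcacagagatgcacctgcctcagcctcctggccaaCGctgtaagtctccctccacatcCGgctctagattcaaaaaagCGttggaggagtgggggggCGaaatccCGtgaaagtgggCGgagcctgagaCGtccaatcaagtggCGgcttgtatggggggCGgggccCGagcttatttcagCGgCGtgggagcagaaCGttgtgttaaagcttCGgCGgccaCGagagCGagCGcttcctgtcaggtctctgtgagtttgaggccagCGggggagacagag
Magea5: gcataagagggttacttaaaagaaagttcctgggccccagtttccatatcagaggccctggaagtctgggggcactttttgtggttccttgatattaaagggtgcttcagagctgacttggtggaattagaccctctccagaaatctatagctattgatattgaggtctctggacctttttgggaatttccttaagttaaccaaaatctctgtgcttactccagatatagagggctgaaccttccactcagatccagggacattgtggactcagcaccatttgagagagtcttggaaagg
Maged1: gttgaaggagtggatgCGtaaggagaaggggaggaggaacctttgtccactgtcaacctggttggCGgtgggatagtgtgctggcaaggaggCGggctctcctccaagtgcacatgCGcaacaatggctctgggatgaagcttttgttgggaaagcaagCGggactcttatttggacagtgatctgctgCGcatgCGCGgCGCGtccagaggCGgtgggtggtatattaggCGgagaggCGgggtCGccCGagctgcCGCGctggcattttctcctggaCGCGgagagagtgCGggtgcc

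The RefSeq promoter windows of members silent in WT covered a wide range of CpG content. Some of these windows, those of Magea5, Xlr5c and Mageb4 among them, lie inside the GENCODE span of the gene. RefSeq promoters were matched by gene identifier for 31 of the 40 members, 35 promoters in all, and held a median of 8 CpG sites, against 7 in all 32851 promoters of the table and 7 in its 1223 X-linked promoters. The 13 promoters of members silent in WT had a median of 7 CpG sites (range 0 to 20), and the 22 promoters of members with counts in WT a median of 8 (range 1 to 36). The 8 promoters of the 5 type II Mage genes had a median of 16, and the 10 Xlr promoters a median of 7. The E2F-type motif TTCCCGCC, searched on both strands as TTCCCGCC or GGCGGGAA, was in 0 of the 35 promoters and in 2.19% of all promoters. Its shorter core CCCGCC or GGCGGG, which lies inside it, was in 12 of 35 (34.3%, against 35.3% of all), in 8 of 8 type II Mage promoters and in 0 of 10 Xlr promoters. The E-box CACGTG was in 0 of 35 promoters and in 7.15% of all. Some near copies with almost the same promoter letters over their aligned bases had unlike WT counts. Gaps are left out of these identities, among them a stretch near the start of Xlr3b that Xlr3c lacks. Xlr3c and Xlr3b promoters were identical at 264 of 269 aligned bases (98.1%), with 0 and 301 WT counts. Xlr4b and Xlr4c were identical at 274 of 277 (98.9%), with 59 and 5 WT counts. Other near copies were closer in WT. Xlr4a and Xlr4b were identical at 288 of 292 (98.6%), with 35 and 59 WT counts. Xlr5a and Xlr5b were identical at all 255 aligned bases, with 2 and 0 WT counts, both at or under the floor.

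Of the 40 members, 20 (50%) were silent in the 3 WT lungs, against 2.25% of all 27207 genes and 5.92% of the 878 X-linked genes that are no members. They were 12 of 14 type I Mage genes (85.7%), 6 of 14 Xlr genes (42.9%), 2 of 4 Prame genes, and none of the type II Mage genes, Ssxb5, Pram1 or Ssx2ip. By name they were Magea2, Magea3, Magea4, Magea5, Magea8, Magea10, Mageb4, Mageb16, Mageb6-ps, Mageb7-ps, Mageb8-ps, Mageb10-ps, Xlr3c, Xlr3d-ps, Xlr3e-ps, Xlr4e-ps, Xlr5b, Xlr5c, Pramel1 and Pramel3. A further 3 members, Mageb18, Xlr4d-ps and Xlr5a, had 1 to 3 WT counts, so 23 were at or under the floor. With a deposited RPKM under 0.1 in every WT library as the limit, 27 members would be silent.

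All 20 silent members had counts in both CKO groups. Of the 27207 genes of the table, 27206 had a count in some library. A member silent in WT was thus all but bound to have CKO counts, though not in both groups. Their summed level was 14.3, 12.5 and 13.7 CPM in strong CKO, 11.5, 13.1 and 7.64 CPM in weak CKO, and 0 CPM in each WT library. As these members were chosen for 0 WT counts, any count puts a CKO lung above WT. MUT_W_549_3 was the lowest of the 6 CKO lungs. Of the 20, 18, 20 and 19 had counts in the strong CKO libraries and 19, 16 and 20 in the weak CKO libraries, and 13 had counts in all 6. The summed counts per member ran from 3 to 539 in strong CKO and from 2 to 452 in weak CKO, and 19 members in strong CKO and 18 in weak CKO were above 3 counts. MUT_W_268_3, the CKO library with Y-linked transcripts, had counts for 16, and WT_268_1, the WT library without them, was at 0 for all 20. In whole lung RNA, more cells with a transcript and more RNA per cell cannot be told apart.

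**Figure D1:**
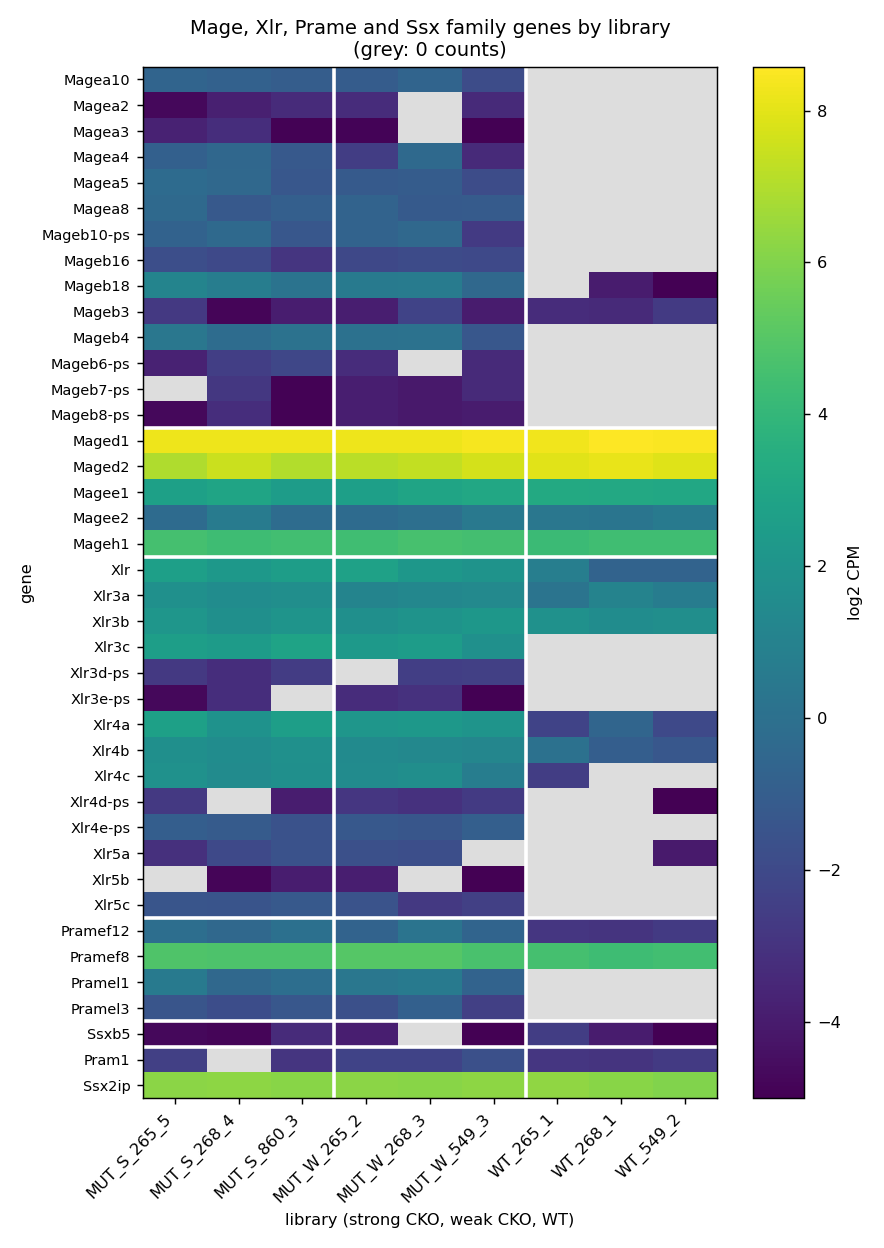
Level of each of the 40 members (rows, by family, separated by white lines) in each of the 9 libraries (columns, strong CKO, weak CKO, WT) as log2 CPM. Grey cells had 0 counts. Grey fills the 3 WT columns for 20 members, while the type II Mage genes, Pramef8 and Ssx2ip are filled in every library.

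Differential expression could be tested for 26 members after the filter on low counts, which was run on all genes by group. Members silent in WT passed it only through their CKO libraries, so their calls are given as a description. In strong CKO 19 of 26 were higher than in WT at an edgeR adjusted p under 0.05, where 14.6% of the 19374 genes tested were called higher, and 1, Maged2, was lower, where 11% were. In weak CKO 18 were higher, where 9.09% of genes were, and 1, again Maged2, was lower, where 5.38% were. Among the 619 tested X-linked genes that are no members, 16.6% were higher in strong CKO and 13.1% in weak CKO. The 18 members higher in weak CKO were all higher in strong CKO too, and Xlr3a was called in strong CKO alone. These 2 comparisons share the WT libraries.

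The median log2 change of the 26 tested members was 4.66 in strong CKO and 4.31 in weak CKO. It was 3.51 and 3.10 with members at or under the floor set to their bound. The median of all genes tested was −0.001 and −0.008. At or under the WT floor were 12 of the 26 members, against 214 of the 19374 genes tested. Those 12 passed the filter only through their CKO libraries, so the members' medians rest partly on the filter. Type I Mage genes had a median of 4.19 in strong CKO and 3.95 in weak CKO at their bound, Xlr genes 3.57 and 2.79, Prame genes 3.03 and 2.96, and type II Mage genes −0.31 and −0.28. In the 6 libraries without Y-linked transcripts, an alternative chosen after seeing the data, 16 members were higher in strong CKO and 6 in weak CKO, with 1 WT library left, assumed to vary like the other groups. The 6 were Xlr, Xlr3c, Xlr4a, Xlr4b, Xlr4c and Xlr4e-ps.

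**Figure D2:**
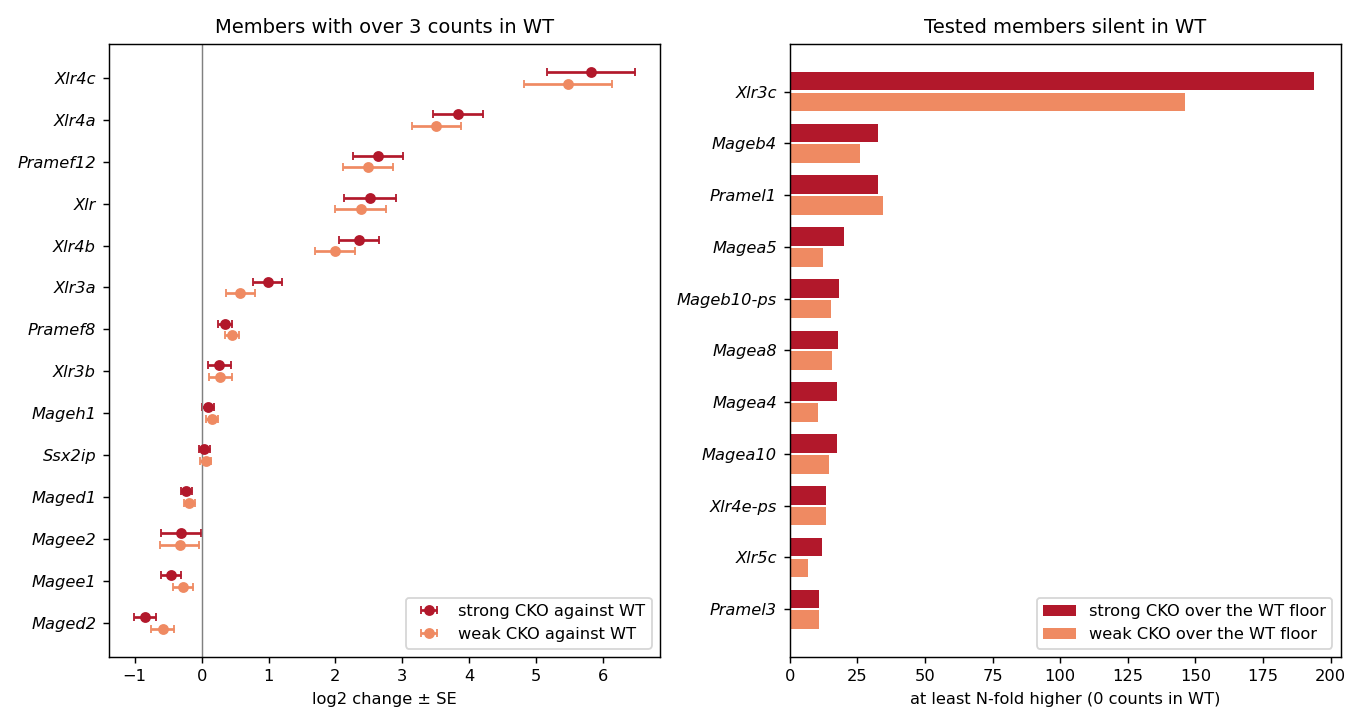
Left, log2 change ± SE of strong CKO and weak CKO against WT for the 14 tested members with over 3 WT counts. Right, the fold of the CKO mean over the WT floor (at least N-fold higher) for the 11 tested members silent in WT. Mageb18, with 3 WT counts, is in neither. Xlr3c stands apart on the right at 194 in strong CKO and 146 in weak CKO, and Maged2 lies furthest to the left.

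Of the families, Xlr genes had the largest gain in summed CPM. The median log2 change was larger for type I Mage genes. All 7 tested type I genes were at or under the WT floor, against 3 of 9 Xlr genes. Such genes passed the filter only through their CKO libraries, so the order of these medians rests partly on the filter. Summed over the 14 members, the Xlr level was 35.3, 27.6 and 35.2 CPM in strong CKO, 29.0, 28.5 and 24.0 CPM in weak CKO, and 7.95, 6.94 and 6.22 CPM in WT. The CKO and WT libraries did not overlap. Of 9 tested Xlr genes, 8 were called higher in strong CKO and 7 in weak CKO, where 14.6% and 9.09% of all genes tested were. Xlr3b did not pass the test in either.

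Xlr3c (ENSMUSG00000058147, chrX:73254540-73265390, minus strand) had the highest level of any member silent in WT. It had 6.10, 5.49 and 7.45 CPM in strong CKO, 5.04, 5.69 and 3.54 CPM in weak CKO, and 0 counts in each WT library. The WT lungs lay below all 6 CKO lungs. The level was at least 194-fold higher in strong CKO and at least 146-fold higher in weak CKO (edgeR adjusted p = 9.398e-06 and 1.695e-05).

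Xlr3b (ENSMUSG00000073125, chrX:73192207-73202930, plus strand), known for maternal-allele expression in mouse brain, was the near copy that did not change by the test. It had 4.40, 3.35 and 4.11 CPM in strong CKO, 3.40, 3.96 and 4.57 CPM in weak CKO, and 3.59, 3.03 and 3.23 CPM in WT. The groups overlapped. Its log2 change was 0.27 ± 0.17 (adjusted p = 0.288) in strong CKO and 0.28 ± 0.17 (adjusted p = 0.329) in weak CKO. Of the 75-base windows in Xlr3c transcripts, 53.8% also occur in Xlr3b, yet Xlr3b had 301 counts over the WT libraries and Xlr3c 0. How reads with several matching places were counted is not stated.

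Xlr3a, the third Xlr3 gene, lay between them. It had 3.54, 2.99 and 3.21 CPM in strong CKO, 2.21, 2.47 and 2.63 CPM in weak CKO, and 1.19, 2.10 and 1.62 CPM in WT. Each group lay above the next with no overlap. The log2 change was 0.99 ± 0.22 in strong CKO (adjusted p = 0.0081) and 0.58 ± 0.22 in weak CKO (adjusted p = 0.109). The call in strong CKO ended with a Y-linked covariate in the fit (adjusted p = 0.0593) and in the 6 libraries without Y-linked transcripts (adjusted p = 0.177).

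All 3 Xlr4 genes rose in both groups. Xlr4a had 6.47, 3.85 and 6.15 CPM in strong CKO, 4.39, 4.65 and 4.07 CPM in weak CKO, and 0.209, 0.678 and 0.249 CPM in WT. Its log2 change was 3.84 ± 0.37 in strong CKO (adjusted p = 8.83e-05) and 3.51 ± 0.37 in weak CKO (adjusted p = 0.000234). No CKO library came near the WT range. Xlr4b, which like Xlr4c is known for maternal-allele expression in mouse brain, had 3.42, 3.03 and 3.57 CPM in strong CKO, 2.86, 2.56 and 2.38 CPM in weak CKO, and 1.05, 0.516 and 0.404 CPM in WT. It rose by 2.36 ± 0.30 in strong CKO (adjusted p = 0.000454) and by 1.99 ± 0.30 in weak CKO (adjusted p = 0.002) on the log2 scale. Xlr4c had 3.65, 2.89 and 3.41 CPM in strong CKO, 2.93, 3.25 and 1.69 CPM in weak CKO, and 0.174, 0 and 0 CPM in WT. All 5 WT counts of Xlr4c were in WT_265_1. Its log2 change was 5.81 ± 0.66 in strong CKO (adjusted p = 0.000279) and 5.48 ± 0.66 in weak CKO (adjusted p = 0.000647). The share of 75-base windows held in common with another gene was 68.2% for Xlr4a, 44.4% for Xlr4b and 57.5% for Xlr4c, so reads may be split between them.

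**Figure D3:**
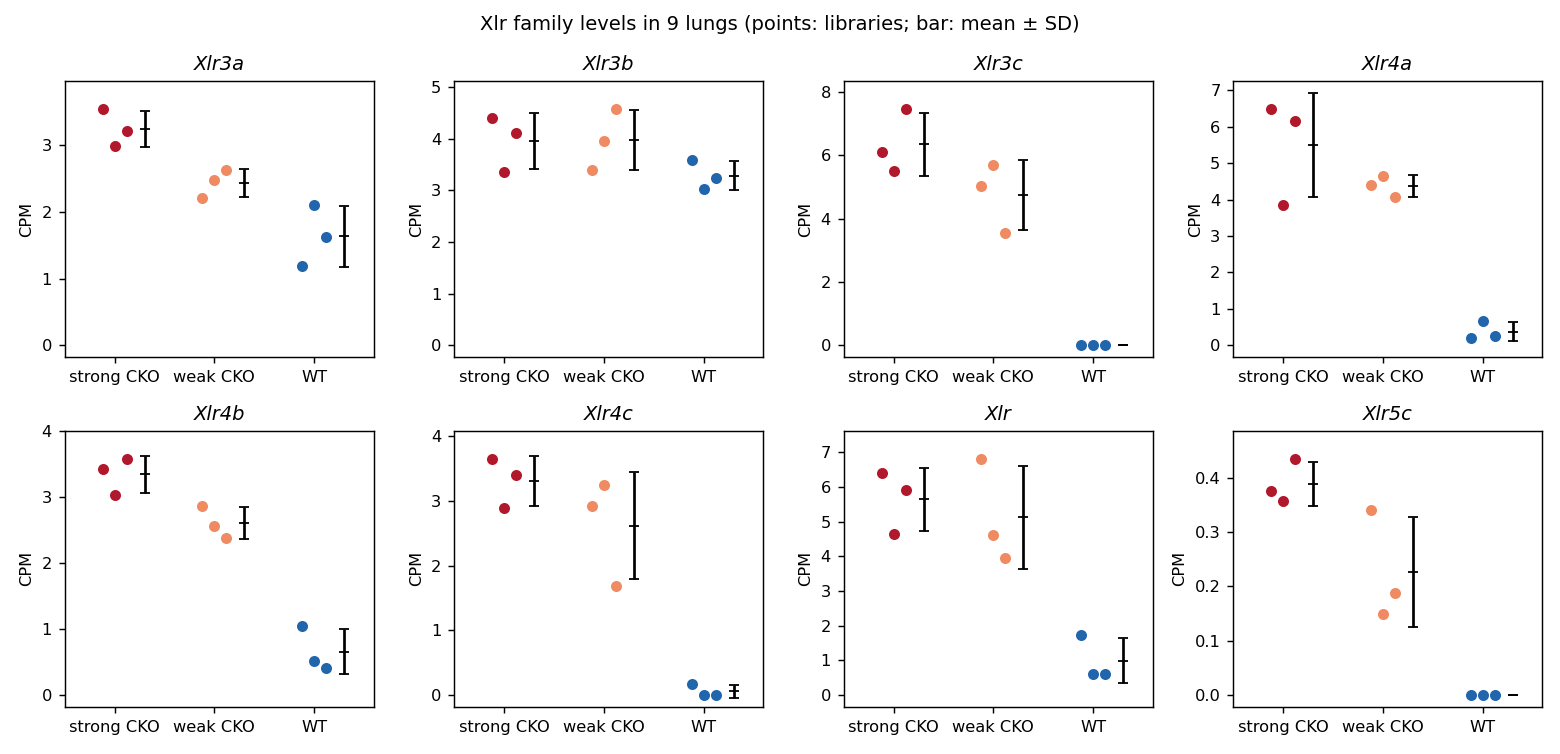
CPM of 8 Xlr genes in strong CKO, weak CKO and WT lungs. Points are libraries and the bar beside them is the mean ± SD of 3 libraries. Xlr3c and Xlr5c lie at 0 in all WT libraries, whereas the Xlr3b points of the 3 groups overlap between 3.03 and 4.57 CPM.

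Xlr, the gene that names the family, lies apart from the cluster at chrX:53777118-53797706. It had 6.40, 4.63 and 5.91 CPM in strong CKO, 6.81, 4.62 and 3.94 CPM in weak CKO, and 1.74, 0.613 and 0.622 CPM in WT. WT_265_1 was the highest WT library and still below every CKO library. Xlr rose by 2.52 ± 0.39 in strong CKO (adjusted p = 0.00153) and by 2.38 ± 0.39 in weak CKO (adjusted p = 0.00361) on the log2 scale.

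Xlr5 genes were expressed at lower levels. Xlr5c had 0.376, 0.356 and 0.434 CPM in strong CKO, 0.340, 0.149 and 0.188 CPM in weak CKO, and 0 counts in WT. It was at least 11.9-fold higher in strong CKO (adjusted p = 0.00135) and at least 6.91-fold higher in weak CKO (adjusted p = 0.00663). Strong CKO libraries all lay above the weak CKO libraries. Xlr5a, not tested, had 20 counts in strong CKO, 19 in weak CKO and 2 in WT, a ratio of 10.9 (95% counting interval 2.64 to 95.8) in strong CKO and 9.19 (2.22 to 81.4) in weak CKO. Xlr5b had 3 counts in each CKO group and 0 in WT. These 3 genes shared 76.2% to 86.1% of their 75-base windows with another gene, so their counts are uncertain.

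Of the 4 Xlr pseudogenes, Xlr4e-ps passed the filter. It had 0.527, 0.463 and 0.334 CPM in strong CKO, 0.408, 0.387 and 0.532 CPM in weak CKO, and 0 counts in WT, and was at least 13.5-fold higher in strong CKO (adjusted p = 0.000653) and at least 13.6-fold higher in weak CKO (adjusted p = 0.000999). Xlr3d-ps had 12 counts in each CKO group, and Xlr3e-ps 4 in strong CKO and 8 in weak CKO, both with 0 in WT. Xlr4d-ps had 6, 13 and 1 counts in strong CKO, weak CKO and WT.

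The Xlr3, Xlr4 and Xlr5 genes stand together in 218.6 kb at chrX:73074345-73292976. Of the 9 members in it, 3 were silent in WT, against 2.25% of all 27207 genes. Called higher were 6 in strong CKO and 5 in weak CKO, where 14.6% and 9.09% of all genes tested were. Xlr3c and Xlr5c, silent in WT, passed the filter only through their CKO libraries. Xlr3b, which was not called, lies between Xlr5b and Xlr4b. The annotated span of Xlr5a runs across Xlr5b, Xlr3b, Xlr4b, Xlr4c, Xlr3c and Xlr5c. The 4 Xlr pseudogenes lie in a second group at chrX:74696047-74952044.

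**Figure D4:**
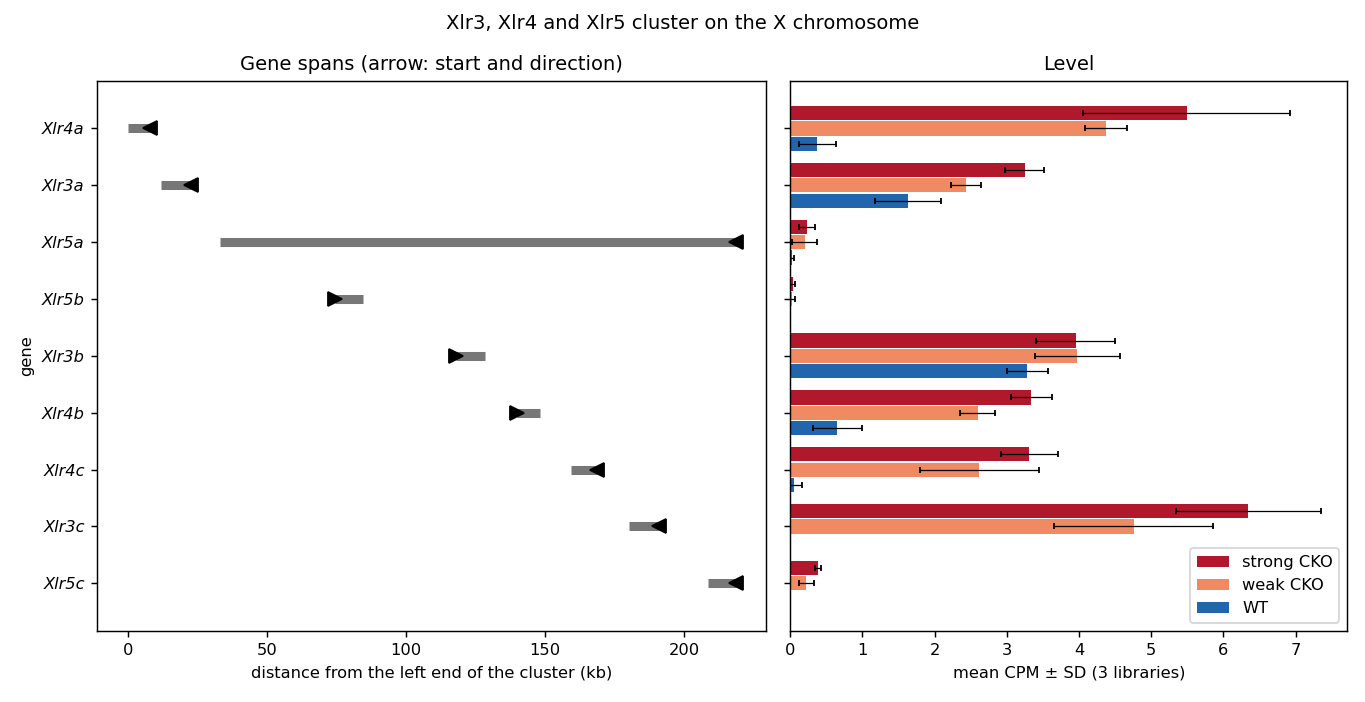
Left, annotated spans of the 9 Xlr genes of the X-linked cluster, in kb from its left end, with an arrow at each start that points along the strand. Right, mean CPM ± SD over 3 libraries per group. Xlr3b has WT levels near those of the CKO groups (3.29 CPM in WT), while Xlr4b beside it and Xlr3c further right are low or at 0 in WT.

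Type I Mage genes came on at lower levels than the Xlr genes. Summed over 14 genes they had 7.56, 6.67 and 5.08 CPM in strong CKO, 5.51, 6.35 and 3.13 CPM in weak CKO, and 0.105, 0.161 and 0.187 CPM in WT. All 7 that could be tested were called higher in both CKO groups. Of all genes tested, 14.6% were called higher in strong CKO and 9.09% in weak CKO. All 7 were at or under the floor in WT and passed the filter only through their CKO libraries, so these calls are a description.

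Mageb18 had the highest CKO level of this class, 2.18, 1.68 and 1.10 CPM in strong CKO and 1.46, 1.58 and 0.751 CPM in weak CKO, against 0, 0.0645 and 0.0311 CPM in WT. With 3 WT counts, the ratio was 50.0 (95% counting interval 16.7 to 245) in strong CKO and 38.7 (12.9 to 190) in weak CKO (edgeR adjusted p = 0.000205 and 0.000536). None of its 75-base windows occurs in another gene. Mageb4 had 1.28, 0.856 and 1.07 CPM in strong CKO, 1.05, 1.07 and 0.407 CPM in weak CKO, and 0 counts in WT. It was at least 32.7-fold higher in strong CKO (adjusted p = 0.00054) and at least 25.9-fold higher in weak CKO (adjusted p = 0.00123). Mageb10-ps lies within the span of Mageb4 on the same strand and shares 75.4% of its windows with it, so the 2 counts cannot be told apart with certainty. It had 0.602, 0.784 and 0.401 CPM in strong CKO, 0.613, 0.745 and 0.157 CPM in weak CKO, and 0 counts in WT, and was at least 18.2-fold higher in strong CKO (adjusted p = 0.00357) and at least 15.4-fold higher in weak CKO (adjusted p = 0.00818). For these 3 genes MUT_W_549_3 was the lowest weak CKO library.

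Magea genes rose at 2 places on the X chromosome. Magea10 had 0.640, 0.570 and 0.501 CPM in strong CKO, 0.476, 0.656 and 0.282 CPM in weak CKO, and 0 counts in WT. It was at least 17.5-fold higher in strong CKO (adjusted p = 0.000751) and at least 14.4-fold higher in weak CKO (adjusted p = 0.00166). Magea4, its neighbour within 164.8 kb, had 0.564, 0.713 and 0.434 CPM in strong CKO, 0.170, 0.775 and 0.0939 CPM in weak CKO, and 0 counts in WT. The weak CKO libraries were spread widely, with MUT_W_268_3 high. Magea4 was at least 17.5-fold higher in strong CKO (adjusted p = 0.0099) and at least 10.6-fold higher in weak CKO (adjusted p = 0.0323), and the call in weak CKO ended under 8 of 20 alternatives, among them without any 1 of the WT libraries (adjusted p 0.0548 to 0.08), without MUT_S_265_5 (0.0535) and in the 6 libraries without Y-linked transcripts (0.196). Neither gene shares a 75-base window with another gene.

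At chrX:154948543-155093666 stand Magea3, Magea8, Magea2 and Magea5, all silent in WT. Magea5 had 0.828, 0.749 and 0.401 CPM in strong CKO, 0.442, 0.477 and 0.282 CPM in weak CKO, and 0 counts in WT, at least 20.2-fold higher in strong CKO (adjusted p = 0.000714) and at least 12.3-fold higher in weak CKO (adjusted p = 0.0028). Its RefSeq promoter window, shown above, holds no CpG site, but the GENCODE span of Magea5 begins upstream of that window. Magea8 had 0.790, 0.428 and 0.534 CPM in strong CKO, 0.613, 0.447 and 0.470 CPM in weak CKO, and 0 counts in WT, at least 17.9-fold higher in strong CKO (adjusted p = 0.000517) and at least 15.6-fold higher in weak CKO (adjusted p = 0.00102). All CKO libraries of both genes lay above the WT libraries. Magea2 and Magea3 were not tested: Magea2 had 6 counts in each CKO group, and Magea3 had 6 in strong CKO and 2 in weak CKO, with 0 in WT for both. The span of Magea5 lies within that of Magea2.

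The other type I genes were too low for the filter. Mageb16 had 19 counts in strong CKO, 24 in weak CKO and 0 in WT, at least 6.98-fold higher in strong CKO and at least 7.72-fold higher in weak CKO. With no filter on low counts it was called in both (adjusted p = 0.00276 and 0.00347). Mageb6-ps had 14, 6 and 0 counts, Mageb7-ps 5, 7 and 0, and Mageb8-ps 5, 6 and 0 in strong CKO, weak CKO and WT. Mageb3, the 1 autosomal type I gene (chromosome 2), had 7, 11 and 11 counts, and its libraries overlapped between all groups.

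Prame genes were all called higher in both CKO groups, 4 of 4, by very different amounts. Of all genes tested, 14.6% were called higher in strong CKO and 9.09% in weak CKO. Pramel1 and Pramel3, silent in WT, passed the filter only through their CKO libraries. Pramel1 (chr4:143394428-143400160) had 1.5, 0.749 and 0.935 CPM in strong CKO, 1.29, 1.46 and 0.626 CPM in weak CKO, and 0 counts in WT. It was at least 32.5-fold higher in strong CKO (adjusted p = 0.000641) and at least 34.5-fold higher in weak CKO (adjusted p = 0.000931). Its promoter holds 20 CpG sites, the most of any promoter of a member silent in WT. X-linked Pramel3 had 0.376, 0.285 and 0.401 CPM in strong CKO, 0.306, 0.566 and 0.188 CPM in weak CKO, and 0 counts in WT, at least 10.8-fold higher in each (adjusted p = 0.00312 and 0.00523), and shares 70.4% of its windows with other genes.

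Pramef12, whose loss is known to impair spermatogonia in mice, was low but not silent in WT. It had 0.941, 0.749 and 1.0 CPM in strong CKO, 0.613, 1.16 and 0.657 CPM in weak CKO, and 0.139, 0.129 and 0.155 CPM in WT. CKO and WT libraries did not overlap. The log2 change was 2.63 ± 0.37 in strong CKO (adjusted p = 0.000879) and 2.49 ± 0.37 in weak CKO (adjusted p = 0.00197). Pramef8 was well expressed in WT lungs. It had 28.3, 27.5 and 28.0 CPM in strong CKO, 31.9, 32.5 and 25.6 CPM in weak CKO, and 23.5, 20.4 and 21.8 CPM in WT. Both CKO groups lay above WT without overlap, but the log2 change was small, 0.35 ± 0.10 in strong CKO (adjusted p = 0.0256) and 0.45 ± 0.10 in weak CKO (adjusted p = 0.0139). Pramel1 and Pramef8, neighbours within 26.66 kb, thus had 0 and 21.9 CPM on average in WT. The call of Pramef8 in strong CKO ended under 7 of 20 alternatives. Among them were the fits without WT_268_1, WT_549_2, MUT_S_265_5 or MUT_S_860_3. The call also ended with the erythroid level as a covariate (adjusted p = 0.204) and with the library number as a block (adjusted p = 0.0807). In weak CKO the call ended under 3 of 20 alternatives. These were without MUT_W_265_2 (adjusted p = 0.0583), without MUT_W_268_3 (adjusted p = 0.0623) and the 6 libraries without Y-linked transcripts.

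Type II Mage genes were expressed in every library. Per kilobase of exon, Maged1 had 69.1 CPM in strong CKO, 71.6 CPM in weak CKO and 81.2 CPM in WT, and Maged2 44.5, 53.3 and 79.9 CPM per kilobase. Mageh1 had 15.6 CPM per kilobase in strong CKO, 16.3 in weak CKO and 14.6 in WT. Among members silent in WT, Xlr3c reached the highest level per kilobase, 4.01 in strong CKO and 3.00 in weak CKO.

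Maged2, in which human mutations cause transient antenatal Bartter syndrome, was the 1 member that fell. It had 124, 179 and 129 CPM in strong CKO, 145, 163 and 210 CPM in weak CKO, and 246, 284 and 246 CPM in WT. All 6 CKO libraries lay below the WT libraries. Its log2 change was −0.85 ± 0.17 in strong CKO (edgeR adjusted p = 0.006) and −0.58 ± 0.17 in weak CKO (adjusted p = 0.0461). The call in weak CKO ended under 12 of 20 alternatives, and that in strong CKO with the erythroid level as a covariate (adjusted p = 0.0594) or in the 6 libraries without Y-linked transcripts (adjusted p = 0.0975). Of 4 mesenchymal markers Tbx4, Tcf21 and Pdgfra were lower in both CKO groups, and Col1a1 averaged 1534 CPM in strong CKO, 1381 CPM in weak CKO and 1216 CPM in WT without passing the test. The summed level of the 4 was 1887 to 2122 CPM in strong CKO, 1866 to 2075 CPM in weak CKO and 1931 to 2305 CPM in WT. Endothelial Pecam1, Cdh5 and Kdr were lower in strong CKO, with a summed level of 1069 to 1335 CPM in strong CKO, 1433 to 1472 CPM in weak CKO and 1583 to 2067 CPM in WT, and Cdh5 was lower in weak CKO too. The part of these cells in the fall of Maged2 was not tested.

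Maged1, a partner of the p75 neurotrophin receptor, had 300, 301 and 301 CPM in strong CKO, 301, 300 and 333 CPM in weak CKO, and 312, 382 and 366 CPM in WT. Strong CKO lay just below WT, but the log2 changes of −0.23 ± 0.08 (adjusted p = 0.0609) and, in weak CKO, −0.18 ± 0.08 (adjusted p = 0.172) missed the threshold. Without WT_265_1 Maged1 was called lower in both (adjusted p = 0.01 and 0.0313). Magee1, which binds dystrobrevin, had 6.58, 7.66 and 5.71 CPM in strong CKO, 6.26, 7.54 and 8.70 CPM in weak CKO, and 9.38, 9.07 and 8.86 CPM in WT. Both CKO groups lay below WT without overlap, with log2 changes of −0.45 ± 0.15 (adjusted p = 0.0505) in strong CKO and −0.28 ± 0.15 (adjusted p = 0.257) in weak CKO, and Magee1 was called lower in strong CKO under 7 of 20 alternatives, DESeq2 among them (adjusted p = 0.0257).

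Magee2 had 0.828, 1.57 and 0.869 CPM in strong CKO, 0.851, 0.983 and 1.38 CPM in weak CKO, and 1.32, 1.23 and 1.49 CPM in WT, and its groups overlapped. Mageh1 had 23.5, 20.9 and 21.8 CPM in strong CKO, 21.6, 24.6 and 22.7 CPM in weak CKO, and 19.1, 21.4 and 21.5 CPM in WT. Neither passed the test, with adjusted p of 0.483 and 0.513 for Magee2 and 0.441 and 0.270 for Mageh1 in strong and weak CKO.

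**Figure D5:**
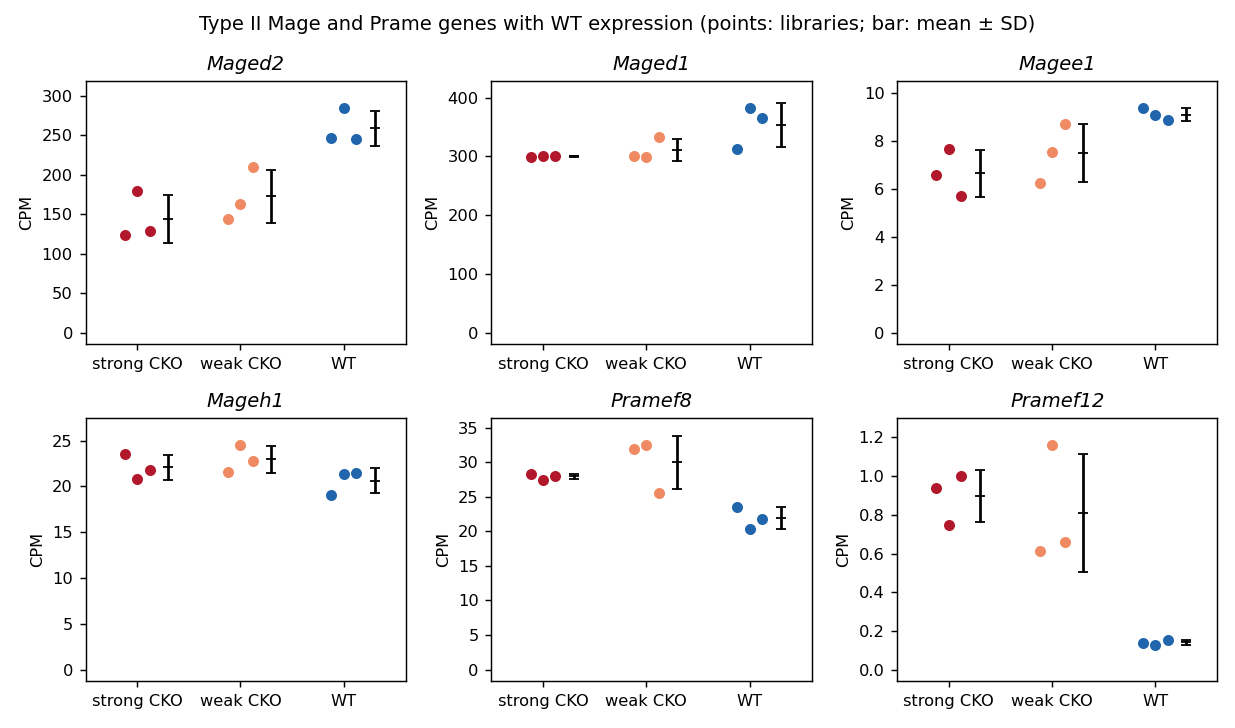
CPM of 4 type II Mage genes and 2 Prame genes with counts in every WT library, in strong CKO, weak CKO and WT lungs. Points are libraries and the bar beside them is the mean ± SD of 3 libraries. Maged2 points of all 6 CKO lungs lie below the WT points, and Pramef12 points lie above them, at 0.613 to 1.16 CPM.

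The remaining members showed no change that could be called. Ssxb5 had 5 counts in strong CKO, 3 in weak CKO and 8 in WT, and no rise was detectable at this depth. Ssx2ip had 73.2, 76.5 and 70.9 CPM in strong CKO, 74.5, 72.2 and 76.7 CPM in weak CKO, and 79.7, 70.7 and 64.1 CPM in WT, and its log2 changes were 0.04 ± 0.08 (adjusted p = 0.742) and 0.06 ± 0.08 (adjusted p = 0.685). Pram1 had 9, 23 and 13 counts in strong CKO, weak CKO and WT and shares 82.4% of its windows with Gm20507.

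Between strong and weak CKO no member was called, 0 of 26 in either direction, where 0% of genes were called higher and 0.00516% lower. At an unadjusted p under 0.05 there were also 0 of 26, against 5.67% of all genes, and DESeq2 called 0. The log2 differences of strong over weak CKO ran from −0.26 ± 0.17 for Maged2 to 0.79 ± 0.43 for Xlr5c, and the smallest adjusted p was 0.881, for Xlr3a. Of the 26 tested members, 16 had a higher fitted level in strong than in weak CKO. Among the 19 called higher in strong CKO than in WT it was 15, but these were chosen on the same strong CKO libraries. Strong CKO libraries lay wholly above the weak CKO libraries in 3 of the 26 tested members, Xlr3a, Xlr4b and Xlr5c, where 6.7% of genes did, and wholly below in 0, where 6.73% did.

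MUT_S_268_4 was the lowest strong CKO library in 13 of the 19 members higher there, MUT_S_860_3 in 6 and MUT_S_265_5 in 0. MUT_W_549_3 was the lowest weak CKO library in 14 of 18. These were also the CKO libraries with the highest Dnmt1 of their groups, 78.7 and 80.6 CPM. Its part in the lower levels was not tested.

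Genes near these families in function were compared from lists. All 7 tested genes of the other X-linked cancer-testis list (16 symbols, of which 10 were found) were higher in both CKO groups, with a median log2 change of 6.06 in strong CKO and 5.56 in weak CKO. Of all genes tested, 14.6% were higher in strong CKO and 9.09% in weak CKO. The list was chosen with earlier results of these data known, and its members Usp26 and Pet2, with 0 WT counts, passed the filter only through their CKO libraries. None of the 6 ubiquitin ligases and other partners of MAGE proteins found (Trim28, Trim27, Nsmce1, Pja1, Lnx1 and Usp7), the 4 cullin 2 ligase subunits (Cul2, Elob, Eloc and Rbx1) or the MAGE-domain relatives Ndn and Nsmce3 passed the test in either group. Sycp3, the meiotic relative of Xlr, had a mean of 1.21 CPM in strong CKO, 1.08 CPM in weak CKO and 0.781 CPM in WT and did not pass (adjusted p = 0.14 and 0.341).

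Listed germ cell genes moved with the members in part. Their RNA in whole lung does not tell germ cells from lung cells that express these genes. Dazl had 258, 201 and 287 CPM in strong CKO, 228, 233 and 145 CPM in weak CKO, and 0.244, 0.290 and 0.218 CPM in WT, and Ddx4 was also higher in both groups. Nanos3, the third of the 5 listed markers that was matched, ran from 0.668 to 0.891 CPM in strong CKO, from 0.613 to 1.13 CPM in weak CKO and from 0.645 to 1.06 CPM in WT. The summed level of the 3 was 208.8 to 299 CPM in strong CKO, 151 to 248 CPM in weak CKO and 1.35 to 1.99 CPM in WT. Macrophage markers were higher too, 4 of 4 in strong CKO and 3 of 4 in weak CKO, with a summed level of 144.5 to 184.8 CPM in strong CKO, 147 to 179.8 CPM in weak CKO and 78.3 to 115 CPM in WT. Of 4 tested nerve and Schwann cell markers 2, Sox10 and Tubb3, were higher in both groups, and the 5 summed to 8.27 to 10.53 CPM in strong CKO, 8.44 to 9.54 CPM in weak CKO and 7.23 to 7.96 CPM in WT. Of 2 smooth muscle markers Acta2 was higher in strong CKO, and the summed level was 335 to 558 CPM in strong CKO, 323 to 433 CPM in weak CKO and 194 to 297 CPM in WT. No erythroid marker (0 of 6) and no neutrophil or myeloid marker (0 of 6 tested) was called, while the erythroid sum was 6731 to 12630 CPM in strong CKO, 3757 to 4364 CPM in weak CKO and 3908 to 7348 CPM in WT. The part of any of these cells in the members' levels was not tested.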

How the data were processed

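RNA was measured in 9 whole lungs at E18.5, 3 per group. One table was used. It holds counts per gene deposited by the authors, 1 column per library and not normalised, and RPKM values deposited by the authors, whose values follow from the count, the gene length in the table and a depth 1.028 to 1.126 times the summed counts. The deposited length was above 1.2 times the union of annotated exons for 53.5% of genes (4.59 times for Maged2), so deposited RPKM understates such genes, and levels between genes are given as CPM per kilobase of exon union (GENCODE, GRCm38). Total RNA, TruSeq libraries and single reads of 75 nt are named per the labels' protocols. Per the submitters' processing notes, the authors used STAR and the GRCm38.p6 build, edgeR 3.28.1, Trimmomatic 0.36, cutadapt 2.5 and FastQC 0.11.8. No source used here names the counting tool, the strandedness or the handling of reads with several matches, so counts of near copies and overlapping genes are uncertain.

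Counts of all 27207 genes were filtered by group with filterByExpr, which kept 19374, and fitted with edgeR 4.0.16 in R 4.3.3 (TMM factors 0.938 to 1.04, robust quasi-likelihood, all 9 libraries, 1 mean per group, two-sided F tests, Benjamini-Hochberg over all genes tested, threshold 0.05, common biological coefficient of variation 0.15). Errors of log2 changes are standard errors. Against 0 WT counts a fold is the CKO mean over 3 counts in the 3 WT libraries (0.0327 CPM). This is a lower bound as to WT counting error only, and the error of the CKO mean is not in it. With 1 to 3 WT counts a count ratio with a 95% interval is given, which covers counting error only. An exact permutation test of 3 against 3 cannot go below 0.1, so none was used. The labels do not say that lungs came from separate litters, and p-values then reflect only how these samples vary. In simulated counts for weak CKO against WT (19374 genes), edgeR recovered 46 and 47 of 50 genes changed 2-fold up and down, and 50 of 50 changed 4-fold. The changed genes were drawn from those averaging above 1 CPM, and all genes had the same common variation. These rates therefore do not cover the members below that level or silent in WT.

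Members, lists and tests were chosen with earlier results of these data known. Values per library are given for every member called in a comparison and for the 6 uncalled members with the highest mean CPM, and other members are given by counts. Alternatives were other scalings (RLE, upper quartile), DESeq2 1.42.0, limma 3.58.1 on log2(RPKM + 1) or log2(RPKM + 0.1), no filter, a Y-linked or erythroid covariate, fewer libraries and a block. Shared windows are 75-base stretches of GENCODE transcripts found in another gene. Promoters were aligned in pairs with Python 3.11.15, and identity was counted over aligned bases without gaps.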

Additional observations from a re-analysis of the deposited data

How the results depend on the processing

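The count of 20 members silent in WT was 20 to 22 without each WT library in turn, 23 with up to 3 counts allowed and 27 with RPKM under 0.1. Members called higher numbered 16 to 19 in weak CKO and 18 to 22 in strong CKO under all alternatives other than the one named next, with 18 and 19 by DESeq2 and 19 and 22 with no filter. In the 6 libraries without Y-linked transcripts, chosen after seeing the data, 6 were higher in weak CKO and 16 in strong CKO, with 1 WT and 2 weak CKO libraries left. The 1 member lower in weak CKO was 0 with no filter, with the Y-linked covariate, with limma on log2(RPKM + 1) or log2(RPKM + 0.1) and in those 6 libraries, and 0 to 1 without 1 library at a time. The 1 member lower in strong CKO was 2 with RLE, 3 with DESeq2, 2 with limma at either pseudocount, 0 with the erythroid covariate, 0 in the 6 libraries, and 1 to 2 without 1 library at a time. The cause was not tested. No alternative called a member between strong and weak CKO; no called change reversed. Of the values of single members under alternatives, 982 kept their side of the threshold, 47 lost and 11 gained a call.

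Library numbers, whose meaning is not stated, were not taken to pair the samples. For strong CKO and WT, same-numbered libraries correlated at 0.101 and 0.112, and different-numbered ones at −0.159 to 0.069. For strong and weak CKO these values were 0.158 and −0.01, and −0.24 to 0.237. For weak CKO and WT they were 0.368, −0.078 and 0.39, and −0.432 to 0.049. What the numbers stand for was not tested. With the library number as a replicate block, 18 members were higher and 1 lower in weak CKO, 18 higher and 1 lower in strong CKO (Pramef8 was lost, adjusted p = 0.0807), and 0 differed between strong and weak CKO. Depth limits the 14 untested members, 9 of them silent in WT, whose counts do not allow a firm fold.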
